A study of Homo sapiens with 12 samples.

Results

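The 9 transcription factors described here, IRF8, RUNX1, CEBPA, CEBPB, MEF2C, MAF, MITF, TFEC and BHLHE41, act in the myeloid lineage from which microglia and other macrophages arise. They were taken by gene name from a table of 62703 genes, and all 9 passed the expression filter, with between 468 and 13917 estimated counts per library. The cells were iMGLs, microglia-like cells that were derived through hematopoietic precursors from WTC11, an established pluripotent line of human origin. The line had been edited with CRISPR to give 3 WT control clones (J, K, L) and 3 isogenic clones with LACTB KO (A, B, C), and LACTB encodes a mitochondrial enzyme of the serine beta-lactamase type. Each clone was differentiated 2 times, which gave 12 libraries of polyA RNA, 6 per genotype. All cells received IL34 (100 ng/ml), TGFb (50 ng/ml) and MCSF (25 ng/ml), and also CX3CL1 and CD200 (100 ng/ml each) from day 24 until collection on day 27 by the sample labels, or a day later by the study's methods. No other treatment was given. Each genotype is thus represented by 3 single-cell-derived lines, and the 2 libraries of a line share it.

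Myeloid identity is set by a small group of DNA-binding proteins that act together at enhancers. RUNX1 is needed for blood stem cells to form, the C/EBP proteins commit progenitors to the myeloid branch, and IRF8 directs them towards monocytes, macrophages and microglia. MEF2C, MAF and the pair of bHLH factors BHLHE40 and BHLHE41 shape the mature macrophage, while MITF and TFEC belong to the MiT/TFE family, which drives lysosomal and osteoclast genes.

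Because CEBPA and BHLHE41, and MAF and TFEC, were the pairs that varied together most closely across the 12 libraries, the 250 bases before their RefSeq starts are shown, 5′ to 3′ on the strand of the gene, with searched motifs in capitals. They lie on the minus strand of GRCh38.p14 at chr12:26125038-26125287 (BHLHE41), chr19:33302535-33302784 (CEBPA), chr16:79600738-79600987 (MAF) and chr7:116030764-116031013 (TFEC, the more upstream of its 2 RefSeq starts).
BHLHE41: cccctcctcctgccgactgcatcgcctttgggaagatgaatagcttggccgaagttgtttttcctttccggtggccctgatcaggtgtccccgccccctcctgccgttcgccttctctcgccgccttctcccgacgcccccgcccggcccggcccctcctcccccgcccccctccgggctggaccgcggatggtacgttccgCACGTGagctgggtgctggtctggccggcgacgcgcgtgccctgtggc
CEBPA: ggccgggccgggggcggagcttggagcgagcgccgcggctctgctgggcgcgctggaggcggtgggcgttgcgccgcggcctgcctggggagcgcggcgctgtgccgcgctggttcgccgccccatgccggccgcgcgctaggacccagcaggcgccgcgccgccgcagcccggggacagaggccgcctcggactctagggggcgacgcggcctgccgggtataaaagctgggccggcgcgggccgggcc
MAF: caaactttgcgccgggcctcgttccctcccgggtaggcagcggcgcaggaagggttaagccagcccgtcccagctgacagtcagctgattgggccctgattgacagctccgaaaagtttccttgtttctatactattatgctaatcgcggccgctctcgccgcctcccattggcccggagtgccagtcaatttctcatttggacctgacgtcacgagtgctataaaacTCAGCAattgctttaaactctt
TFEC: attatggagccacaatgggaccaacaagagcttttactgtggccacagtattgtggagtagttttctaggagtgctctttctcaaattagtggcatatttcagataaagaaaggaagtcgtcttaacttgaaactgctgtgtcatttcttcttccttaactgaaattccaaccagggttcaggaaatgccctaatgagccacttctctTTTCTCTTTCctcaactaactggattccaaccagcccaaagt

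The BHLHE41 sequence holds CACGTG, the E-box that the BHLHE40/41 and MiT/TFE proteins can bind, 48 bases before the start. The letters occur in 6.34% of 35116 such windows of RefSeq genes. In MAF the capitals mark TGCTGA, a core site of MAF proteins, on the opposite strand at -22 (14.0% of windows), and in TFEC they mark the IRF motif (a pair of GAAA separated by 2 bases) on the opposite strand at -42 (3.02% of windows). The CEBPA window held none of the 7 motifs searched on both strands, which were CACGTG and the related E-box CATGTG, the C/EBP motif TTGCNNAA, the RUNX motif TGTGGT, the MAF motif TGCTGA, the IRF motif and the MEF2 motif (CTA and TAG separated by 4 bases). The windows of CEBPB and RUNX1 held none either. IRF8 had TGTGGT at -134 and MITF had TGCTGA at -225, each before 1 of their starts. MEF2C had TTGCATAA at -58 and TGCTGA at -215 of the same start and TGCTGA before 2 further starts (-179 and, on the opposite strand, -7). Each window printed held at most 1 match. CEBPA had the most G and C of these windows, 81.2%, against a median of 58.0% over all windows. These matches describe the letters and do not show that a protein binds there.

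Libraries held between 24153233 and 28406943 estimated counts. Levels are given as CPM, the gene's count relative to the TMM-scaled library total. LACTB itself had 80.2 ± 9.33 CPM (SD, n = 6) in WT and 21.8 ± 20.5 CPM (SD, n = 6) in LACTB KO libraries, all of which lay below every WT library, with clone B at 44.4 and 51.6 CPM and clones A and C at 7.49 to 9.78 CPM. Its log2 fold change was -1.87 (SE 0.675, adjusted p = 0.735, edgeR). Without clone B it was -3.20 (SE 0.150, adjusted p = 0.0157), and LACTB was then the 1 gene called. With the stromal level as a covariate it was -0.99 (SE 0.585, edgeR adjusted p = 0.9995). All 14 microglia and macrophage markers, CSF1R, CX3CR1 and P2RY12 among them, were detected, with a summed level of 10145 to 12706 CPM in WT and 10207 to 11053 CPM in LACTB KO libraries. SALL1, a further microglial factor, had at most 0.877 CPM. Stromal markers such as collagens summed to between 164 and 16077 CPM in WT and between 138 and 2336 CPM in LACTB KO libraries, highest in J1 and K2 (a library is named by its clone and differentiation). Pluripotent markers summed to at most 0.787 CPM, melanocyte markers to 1.49 CPM, granulocyte markers to 4.93 CPM, erythroid and megakaryocyte markers to 10.5 CPM and endothelial markers to 13.6 CPM. The mast cell list summed to 81.5 to 122 CPM, through HPGDS and KIT, while 6 of its 8 genes had 3 counts or fewer in every library. In bulk RNA, fewer cells of a type and less RNA per cell cannot be told apart.

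**Figure D1:**
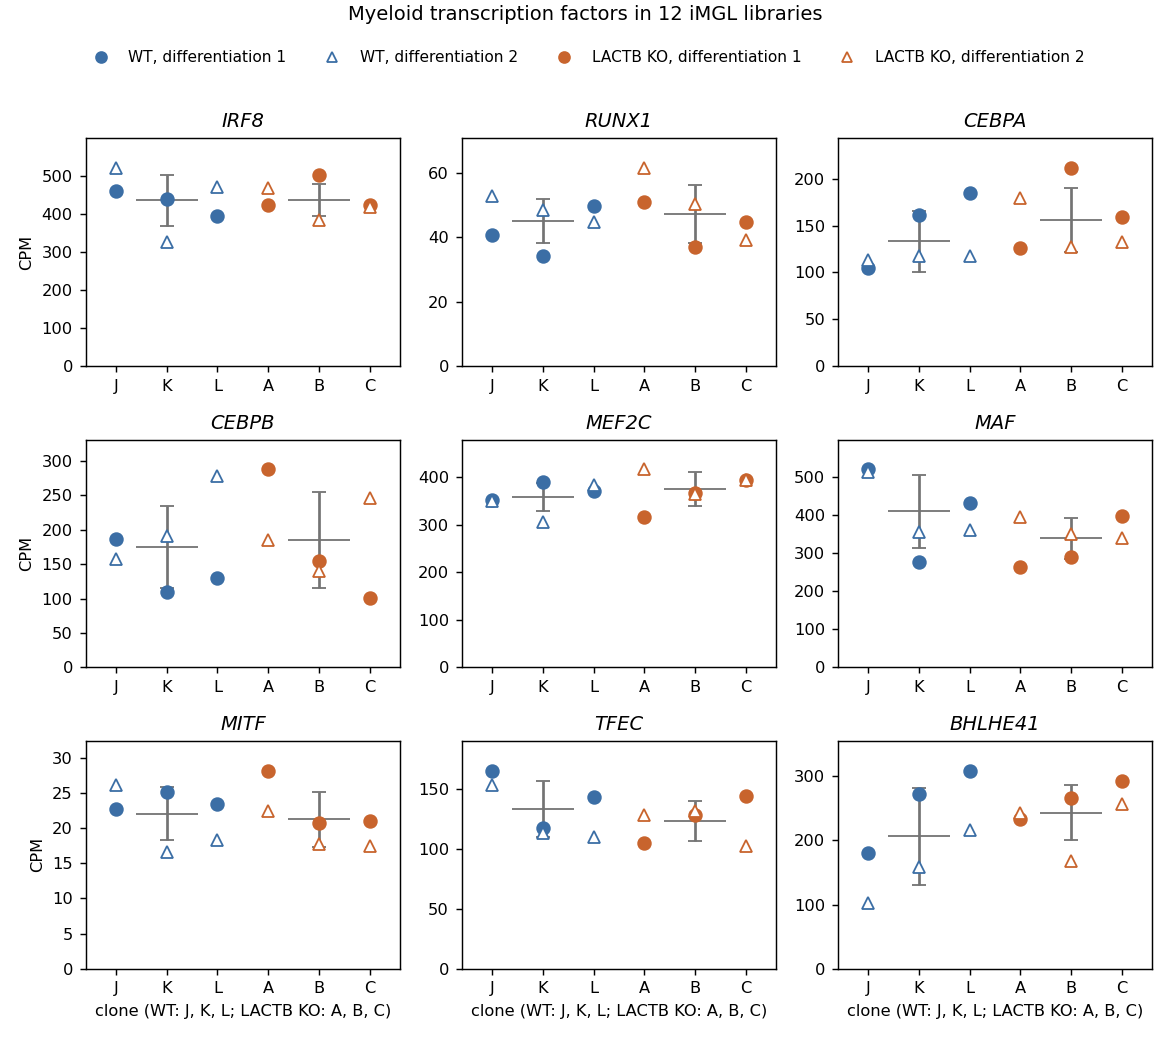
Each panel plots CPM (linear axis from 0) of 1 factor in the 12 libraries by clone, with filled circles for differentiation 1, open triangles for differentiation 2, and a grey line and bar for the mean and SD of 6 libraries of a genotype. The genotypes overlap in every panel, and the lowest BHLHE41 value, 103 CPM, is WT clone J in differentiation 2.

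Per length, the 9 factors spanned more than an order of magnitude, with the mean of CEBPB highest and those of RUNX1 and MITF lowest. CPM was divided by the length of all exons of the gene in kb. CEBPB, a bZIP factor of macrophage activation, had 98.1 ± 33.7 CPM per kb (SD, n = 12) and was above BHLHE41 in 9 of 12 libraries. BHLHE41 (58.3 ± 15.9), CEBPA (55.6 ± 13.04), IRF8 (55.5 ± 6.83) and MAF (53.4 ± 11.9 CPM per kb, SD, n = 12) followed and did not differ beyond their spread, each being above the next in 6 or 7 of 12 libraries. MEF2C had 31.2 ± 2.77 and TFEC 14.9 ± 2.31 CPM per kb, each below the factor before it in 12 of 12 libraries. RUNX1 (2.96 ± 0.492) and MITF (2.92 ± 0.500 CPM per kb) were not distinguishable. Exon lengths depend on how many transcript variants are annotated. With the length of the longest transcript IRF8 stood at 91.8 ± 11.3 CPM per kb. It was then not distinguishable from CEBPB, which was above it in 6 of 12 libraries. MEF2C stood at 50.3 ± 4.46 CPM per kb, below CEBPA in 7 of 12 libraries and within the spread. RUNX1 stood at 6.34 ± 1.05 CPM per kb and was above MITF in 11 of 12 libraries.

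Within their families the factors ranked differently. IRF8 was above each of its 8 relatives in all 12 libraries, the nearest being IRF5 at 18.4 ± 1.87 and IRF4 at 14.9 ± 5.50 CPM per kb. RUNX1 in contrast lay far below RUNX3, the leading RUNX gene of these cells at 111 ± 15.2 CPM per kb. The log2 ratio of RUNX1 to RUNX3 was -5.24 ± 0.368, and -4.32 with the length of the longest transcript. RUNX1 also lay below CBFB, the shared partner of RUNX proteins (25.9 ± 2.74 CPM per kb), while RUNX2 had 0.618 ± 0.393 CPM per kb. CEBPB exceeded CEBPD (34.7 ± 7.66 CPM per kb) in 12 of 12 libraries and CEBPA exceeded it in 11 of 12. CEBPE, a granulocytic member, had 15 to 42 counts per library.

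MEF2C lay below MEF2A (50.9 ± 5.64 CPM per kb) and above MEF2D (15.9 ± 1.01 CPM per kb) in all 12 libraries. MAFA, a large MAF protein like MAF, had at most 1 count. Of the MiT/TFE genes, TFE3 led with 40.0 ± 3.34 CPM per kb, followed by TFEC and TFEB (12.4 ± 1.58 CPM per kb), whose order depends on the length used, and MITF was the lowest in every library under both lengths. BHLHE41 exceeded BHLHE40 (25.0 ± 7.36 CPM per kb) in 12 of 12 libraries.

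**Figure D2:**
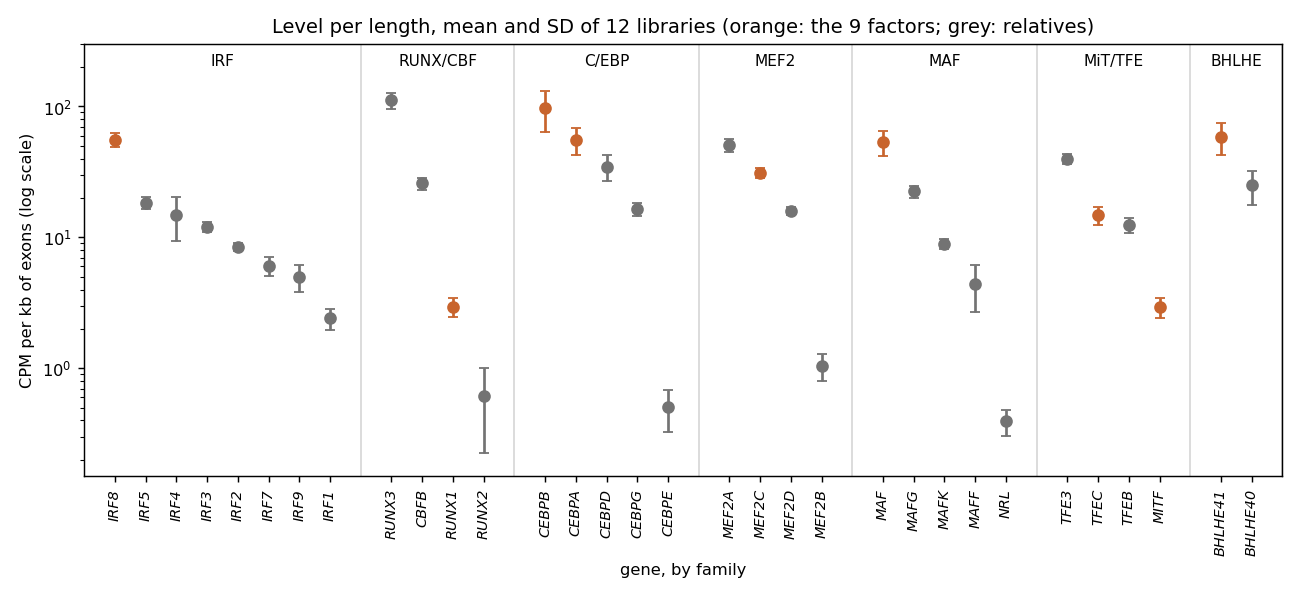
Mean CPM per kb of exons (log axis) and SD over 12 libraries for the 9 factors (orange) and relatives of theirs (grey), grouped by family and ordered by level. RUNX3 stands at 111 against 2.96 for RUNX1, and TFE3 at 40.0 against 2.92 for MITF.

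Whether loss of the enzyme altered the myeloid program was asked by setting the 3 edited clones against the 3 controls. With the 2 libraries of each clone summed, none of the 9 factors passed an adjusted p of 0.05 in edgeR's quasi-likelihood test, and neither did any of the 17577 genes tested (0%). The number with an unadjusted p under 0.05 was 0 of 9 factors, against 6.36% of all genes, and DESeq2, which called 171 genes in all, and limma voom, which called 0, called 0 of the 9 as well. The clone means overlapped between genotypes for all 9. Over all genes they did not overlap for 10.3% (4.01% with every LACTB KO mean above and 6.28% with every one below WT). At that share, 0 of 9 does not set the factors apart from other genes. Of the 9 log2 fold changes 6 were above 0 and 3 below, with a median of 0.08 beside 0.00669 over all genes. Stromal markers had negative log2 fold changes in 19 of 19 genes tested (median -2.76), 15 of them at an unadjusted p under 0.05 and 0 at an adjusted one. With the stromal level as a covariate, the log2 fold changes of CEBPB, MEF2C, TFEC and BHLHE41 turned sign, and 0 of the 9 factors passed the adjusted threshold. The cause was not tested. Of the 14 microglia and macrophage markers 8 lay above and 6 below 0, with 0 at an unadjusted p under 0.05.

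IRF8 (ENSG00000140968.12, chromosome 16, 85899116 to 85922606) had 325, 449 and 520 CPM as the lowest, median and highest of 6 WT libraries and 383, 422 and 502 CPM in LACTB KO. Its log2 fold change was 0.01 (95% interval -0.22 to 0.25, adjusted p = 0.981). The LACTB KO clone means lay inside the WT range. RUNX1 (ENSG00000159216.19, chromosome 21, 34787801 to 36004667) had 34.1, 46.5 and 52.6 CPM in WT and 36.8, 47.5 and 61.4 CPM in LACTB KO. Its log2 fold change was 0.08 (-0.22 to 0.37, adjusted p = 0.915), and the highest 2 values were those of LACTB KO clone A and WT clone J in differentiation 2.

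CEBPA (ENSG00000245848.3, chromosome 19, 33299934 to 33302534), an intronless gene for the bZIP factor of granulocyte and monocyte progenitors, had 105, 117 and 185 CPM in WT and 127, 146 and 212 CPM in LACTB KO libraries. With BHLHE41 it had the highest of the 9 log2 fold changes, 0.24 (SE 0.132, 95% interval -0.08 to 0.55, adjusted p = 0.878). The clone means of A and B lay above all WT means and that of C did not, and the exact two-sided permutation test gave p = 0.2, where 0.1 is the smallest p that 3 against 3 allows. Without WT clone J the difference dropped to 0.10. CEBPB (ENSG00000172216.6, chromosome 20, 50190830 to 50192668) had 110, 172 and 278 CPM in WT and 101, 169 and 288 CPM in LACTB KO. Its log2 fold change was 0.08 (-0.36 to 0.52, adjusted p = 0.936), and both genotypes covered the same range.

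MEF2C (ENSG00000081189.17, chromosome 5, 88717117 to 88904257), a MADS-box factor of microglia, was the steadiest of the 9. It had 306, 361 and 389 CPM in WT and 315, 380 and 416 CPM in the edited libraries, and its log2 fold change was 0.08 (-0.09 to 0.25, adjusted p = 0.879). Its coefficient of variation over the 12 libraries was 8.87%, against a median of 12.1% over 10824 genes with a mean of at least 5 CPM, and those of CEBPB (34.4%), BHLHE41 (27.3%), CEBPA (23.4%) and MAF (22.2%) lay above the upper quartile of 18.3%.

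MAF (ENSG00000178573.7, chromosome 16, 79585843 to 79600737), known as a brake on macrophage self-renewal, had the most negative difference. It had 276, 395 and 519 CPM in WT and 264, 343 and 397 CPM in the edited libraries, and its log2 fold change was -0.26 (SE 0.171, 95% interval -0.67 to 0.14, adjusted p = 0.878). The 2 highest values, 519 and 513 CPM, were both of WT clone J, and the WT clone K mean lay below all 3 LACTB KO means. With each clone left out in turn it ranged from -0.41 without clone K to -0.07 without clone J.

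MITF (ENSG00000187098.18, chromosome 3, 69739456 to 69968336), the melanocyte and osteoclast member of its family, had 16.6, 23.1 and 26.2 CPM in WT and 17.4, 20.8 and 28.2 CPM in the edited libraries, and its log2 fold change was -0.05 (-0.37 to 0.26, adjusted p = 0.943). TFEC (ENSG00000105967.16, chromosome 7, 115935148 to 116159896), its macrophage-restricted relative, had 109, 130 and 165 CPM in WT and 102, 128 and 144 CPM in the edited libraries, and its log2 fold change was -0.11 (-0.39 to 0.18, adjusted p = 0.895). The highest TFEC values, as for MAF, were of clone J. BHLHE41 (ENSG00000123095.6, chromosome 12, 26120030 to 26125037), a repressor of the bHLH-Orange type, had 103, 198 and 308 CPM in WT and 168, 250 and 293 CPM in LACTB KO. Its log2 fold change of 0.24 (SE 0.222, 95% interval -0.29 to 0.77, adjusted p = 0.879) was within the spread of the clones, and the WT libraries enclosed all LACTB KO values. It was 0.02 without WT clone J and 0.45 without WT clone L.

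**Figure D3:**
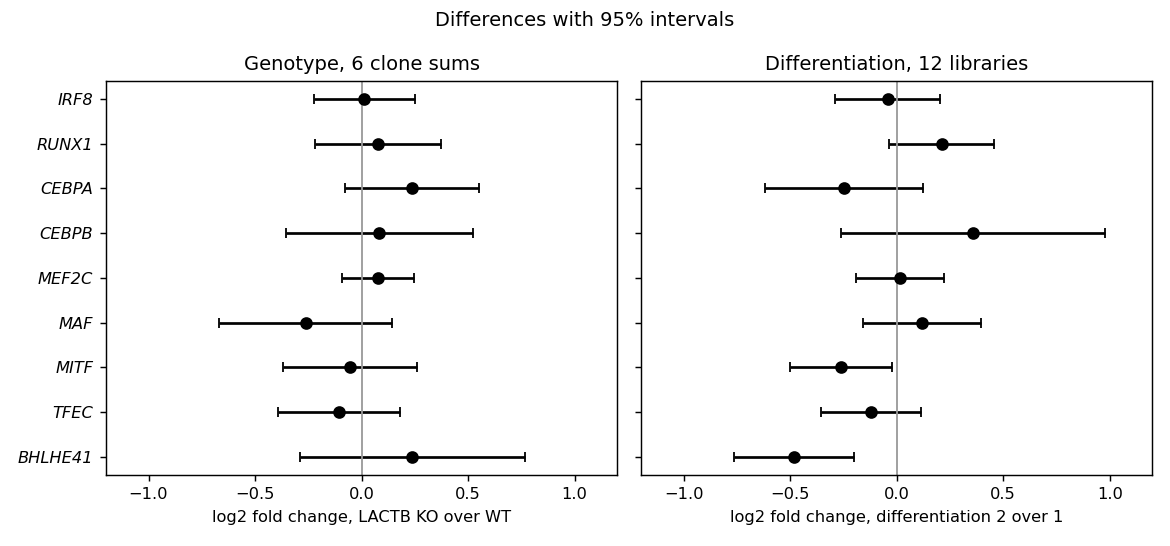
Log2 fold changes (points) of the 9 factors with 95% intervals (bars) from edgeR, on the left for LACTB KO over WT on 6 clone sums and on the right for differentiation 2 over 1 on 12 libraries with clone in the model. Every interval on the left includes 0; on the right those of MITF (-0.26) and BHLHE41 (-0.48) do not, and neither passes the adjusted threshold.

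The labels give the differentiation as a batch, and the paired libraries of each clone show how far the factors moved from one to the next. Again 0 of the 9 factors, and 0 of 15530 genes (0%), had an adjusted p under 0.05 in edgeR, while 48 genes did without WT clone J. BHLHE41 and MITF had an unadjusted p under 0.05 and were lower in differentiation 2, beside 9.95% of all genes with such a p, 3.89% of all genes being lower.

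BHLHE41 had 180, 272 and 308 CPM in differentiation 1 of WT clones J, K and L and 103, 159 and 216 CPM in differentiation 2. In LACTB KO clones A, B and C it had 233, 265 and 293 CPM and then 243, 168 and 257 CPM. It was thus lower in differentiation 2 in all clones but A. The log2 difference was -0.48 (SE 0.122, edgeR adjusted p = 0.278), and without the stromal-rich libraries J1 and K2, that is without clones J and K, it was -0.31 (adjusted p = 0.579). The mean change was -0.70 in WT and -0.26 in LACTB KO clones, and the interaction of genotype and differentiation was 0.44 (SE 0.202, adjusted p = 0.999). MITF was lower in differentiation 2 in all clones but J, with a log2 difference of -0.26 (SE 0.104, edgeR adjusted p = 0.459).

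CEBPB moved most in single clones, without a common direction. It was higher in differentiation 2 by 1.29 on the log2 scale in LACTB KO clone C, by 1.10 in WT clone L and by 0.80 in WT clone K, and lower by 0.25 in J, 0.14 in B and 0.64 in A. The fitted difference was 0.36 (SE 0.269, adjusted p = 0.720), and with single clones left out it lay between 0.17 (without C) and 0.57 (without A), with 0.21 without L. CEBPA was lower in 4 of 6 clones and higher in J and A (fitted -0.25, adjusted p = 0.678, with -0.39 without A, -0.16 without B and -0.16 without L), and RUNX1 was higher in 4 of 6 and lower in L and C (fitted 0.21, adjusted p = 0.583). For IRF8, MEF2C, MAF and TFEC the fitted differences lay between -0.12 and 0.12. No factor passed the interaction test, nor did any gene, while 0.908% of genes had an unadjusted p under 0.05 in it.

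**Figure D4:**
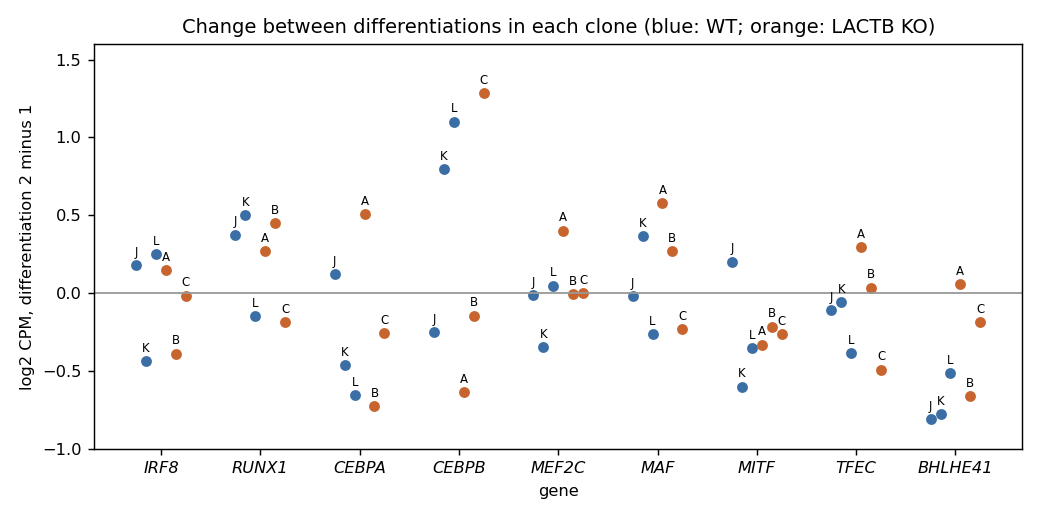
Change in log2 CPM from differentiation 1 to differentiation 2 (vertical axis) for each factor, with 1 point per clone, WT in blue and LACTB KO in orange. The CEBPB points run from -0.64 in clone A to 1.29 in clone C, and 5 of the 6 BHLHE41 points lie below 0.

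Clones of the same genotype are isogenic, and their libraries were compared with differentiation in the model. No factor passed the adjusted threshold, and 7 genes in all did (0.0451%). BHLHE41 had an unadjusted p under 0.05 (edgeR adjusted p = 0.434), as did 8.92% of all genes. WT clone J was at its lower end with a mean of 142 CPM, against 216 to 275 CPM in the other 5 clones. Clone J also had the lowest mean of CEBPA (109 CPM, against 139 to 170 in the others) and the highest of MAF (516 against 316 to 395), TFEC (159 against 115 to 130) and IRF8 (489 against 382 to 445 CPM). LACTB KO clone A likewise had the highest mean log2 CPM of 3 of the 9 factors, clone C of 2 and clone B of 1. Clone K had the lowest mean log2 CPM of 6 of the 9 factors, IRF8, RUNX1, CEBPB, MEF2C, MAF and TFEC. Some margins were small, with TFEC at 6.850 in K and 6.857 in A, and MAF at 8.29 in K and 8.31 in B. By mean CPM, CEBPB was lowest in clone B (147 CPM, against 150 CPM in K). With scaling to macrophage markers, MEF2C was lowest in clone J. How many of all genes had their lowest or highest mean in each clone was not counted. Except for BHLHE41, no factor had an unadjusted p under 0.05 in the test between clones (for MAF the edgeR adjusted p = 0.616).

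Pairs of factors were compared by the correlation of log2 CPM over 12 libraries, which share clones and differentiations, so the values are descriptive. The median of 36 pairs was r = 0.04, with a range from -0.57 to 0.78. MAF and TFEC were closest (r = 0.78, rho = 0.79), with r = 0.95 in differentiation 1 and 0.84 in differentiation 2, and r = 0.57 without clone J. CEBPA and BHLHE41 came next (r = 0.70, rho = 0.80), with r = 0.83 and 0.60 by differentiation and 0.70 without clone J. CEBPB and TFEC were the most opposed (r = -0.57, rho = -0.59). With the stromal level of the library, MEF2C had r = -0.70 (-0.75 without clone J), BHLHE41 r = -0.60 (-0.68) and CEBPA r = -0.52 (-0.32). IRF8 had r = -0.38, and -0.80 without clone J. MAF had r = 0.48 over the 12 libraries, 0.18 without clone J and -0.29 within LACTB KO, so its value was weaker without clone J. By differentiation, MAF had r = 0.74 in differentiation 1 and 0.13 in differentiation 2. TFEC had r = 0.45 (0.11 without clone J). The part of stromal RNA in these levels was not tested.

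Among 10824 genes with a mean of at least 5 CPM, those whose log2 CPM ran most like BHLHE41 were PAOX (r = 0.98) and CSF1R, the receptor for MCSF and IL34 (r = 0.97, and 0.95 without clone J). CSF1R had 1383 CPM in library J2, its lowest, and 2041 CPM in L1, its highest, which were also the lowest and highest libraries of BHLHE41. CEBPB ran most like FKBP4 (r = 0.92) and HSPA5, both genes of protein folding (r = 0.91 for HSPA5). For IRF8 they were ST3GAL6 (r = 0.94) and HMGN3 (0.92), for CEBPA BTBD3 and PHETA1 (0.93 each), for MEF2C BCOR (0.93) and CENPI (0.92), and for MAF CUL9 (0.95) and CLCN6 (0.94). TFEC ran most like SLC27A1 and MIEF2 (r = 0.92 each), MITF like SIPA1L2 (0.86) and JMJD7 (0.84), and RUNX1, the least matched, like HRH2 and EDEM3 (0.77 each). Each is the highest or the next to highest of 10824 values over 12 libraries.

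Of 26 relatives of the factors, 25 were tested between genotypes. None had an unadjusted p under 0.05, beside 6.36% of all genes, and 14 lay above and 11 below 0, their median being 0.02, and those of smallest p included MAFF (-0.32, adjusted p = 0.793) and TFEB (0.25, adjusted p = 0.804). Of 15 other macrophage factors tested, 1 had an unadjusted p under 0.05, SMAD3 (-2.01, adjusted p = 0.726), which at 10.5 CPM was highest in J1, the library richest in stromal transcripts. Of 9 progenitor factors tested, which act before macrophages form, none had such a p. Between differentiations, 1 relative, TFE3, was higher in differentiation 2 at an unadjusted p under 0.05 (0.16, adjusted p = 0.346), as was 1 progenitor factor, LMO2 (0.34, adjusted p = 0.201), and BATF3 was lower (-0.55, adjusted p = 0.405). The share of all genes with such a p was 9.95% there.

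The libraries of WT clone J stood apart in some relatives. IRF4, the closest relative of IRF8, had 11.8 CPM in library J2 and 60.0 CPM in J1, against 70.7 to 124 CPM in the 10 libraries of the other clones. RUNX3 was also lowest in clone J, with 389 CPM in J1 and 455 CPM in J2, against 507 to 653 CPM in the other 10 libraries. In J2 IRF8 was thus at its highest and IRF4 at its lowest, and BHLHE41 was also at its lowest.

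Genes known as targets of these factors were taken as a list of 15, of which 13 were tested. Between genotypes 6 lay above and 7 below 0 (median log2 fold change -0.21), and 3 had an unadjusted p under 0.05, all lower in LACTB KO, as 5.56% of all genes were. They were GPNMB, a lysosomal membrane glycoprotein, CTSK, the protease cathepsin K, and ATP6V0D2, a subunit of the vacuolar proton pump, all known as MiT/TFE targets. ACP5 (-1.05, adjusted p = 0.810, and -0.21 without library J2) and OSCAR (0.11, adjusted p = 0.878), osteoclast genes of the same list and also known as MiT/TFE targets, did not have such a p, and no list of MiT/TFE targets alone was tested. GPNMB had 1736 CPM in library J2, against 20.5 to 170 CPM in the other WT libraries and 28.3 to 145 CPM in LACTB KO libraries.

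CTSK had 78.7 CPM in J2 against 2.36 to 10.8 CPM elsewhere, and ATP6V0D2 had 69.0 CPM against 1.73 to 13.3 CPM. The same library thus held the highest value of all 3. The log2 fold changes were -2.60 for GPNMB, -2.27 for CTSK and -1.74 for ATP6V0D2 (adjusted p = 0.726 for each, edgeR). Without library J2, a choice made after its values were seen, they were -0.73, -0.77 and -0.68 (adjusted p = 0.711 to 0.717). The unadjusted p of that edgeR fit was 0.00949, 0.0206 and 0.0148. Of the MiT/TFE genes, TFE3 was at its highest in J2 (191 CPM, next library 183 CPM). MITF (26.2 CPM, after A1 at 28.2) and TFEC (153 CPM, after J1 at 165) each had their next to highest value in it. TFEB in contrast was at its lowest in J2 (64.4 CPM, next lowest J1 at 64.5 CPM, median 85.5 CPM).

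Between differentiations, 12 of the 13 targets had a positive log2 difference and 1 a negative one, and the median was 0.41 beside -0.00280 over all genes. GPNMB (0.69, SE 0.895), CTSK (0.47, SE 0.608) and ATP6V0D2 (0.53, SE 0.690), all highest in library J2, were among the 12. Each was higher in differentiation 2 in clones J, L and B and lower in K and A. In C, GPNMB and ATP6V0D2 were higher and CTSK was lower. The part of J2 in these differences was not tested. Of these 13, 3 had an unadjusted p under 0.05, as 9.95% of all genes did, and 0 an adjusted one, and CD14 (0.66, adjusted p = 0.186) and LYZ (0.41, adjusted p = 0.329), known C/EBP targets in phagocytes, were among the 3. CD14 was higher in differentiation 2 in each of 6 clones, with 61.6 and 120 CPM in J, 62.2 and 103 CPM in K, 38.9 and 46.3 CPM in L, 30.8 and 58.6 CPM in A, 43.2 and 78.6 CPM in B and 37.0 and 42.2 CPM in C. CIITA, the lower one, had a difference of -0.50 (adjusted p = 0.605).

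**Figure D5:**
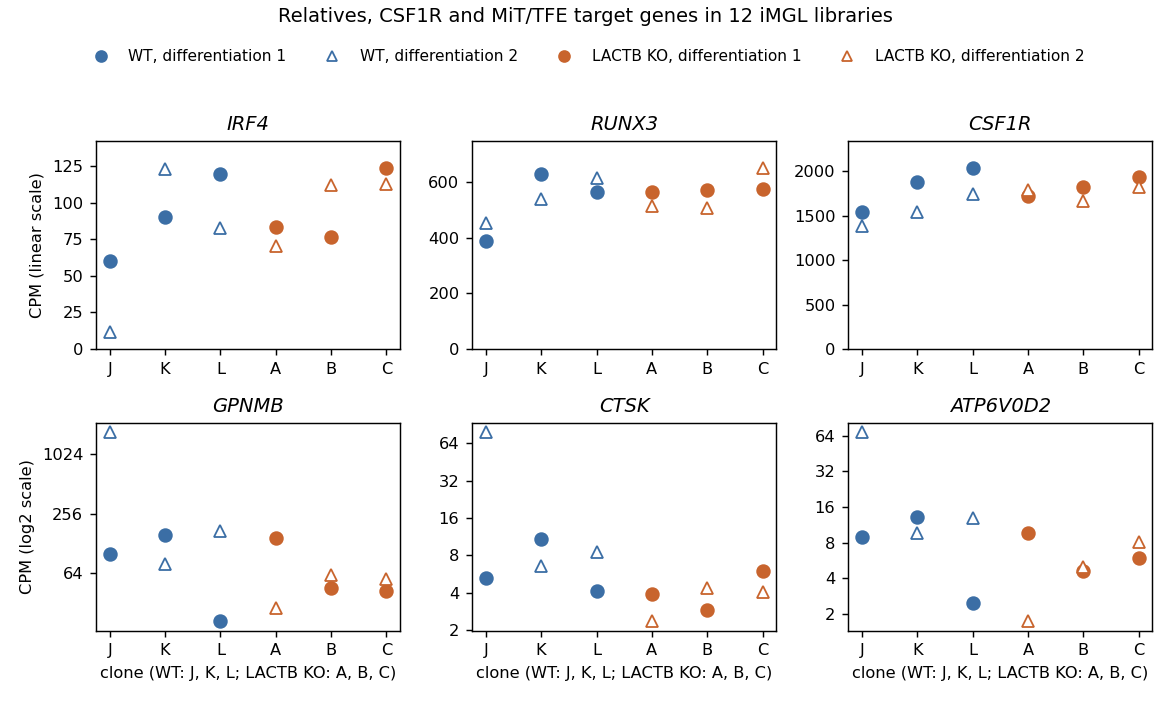
CPM of IRF4, RUNX3 and CSF1R (upper panels, linear axis from 0) and of GPNMB, CTSK and ATP6V0D2 (lower panels, log2 axis) in the 12 libraries by clone, with filled circles for differentiation 1 and open triangles for differentiation 2, WT in blue and LACTB KO in orange. The open triangle of clone J is lowest for IRF4 (11.8 CPM) and highest for GPNMB (1736 CPM), CTSK (78.7 CPM) and ATP6V0D2 (69.0 CPM).

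Reads of overlapping genes on opposite strands cannot be assigned without strand, and the setting used for counting is not given in the sources used here. CEBPA is overlapped by the lncRNA ENSG00000267580 (239 to 527 counts per library beside 2755 to 5836 for CEBPA), and CEBPA-DT starts 323 bases away (113 to 226 counts). BHLHE41 is overlapped by SSPN, with 250 to 1007 counts beside 2751 to 8792. No gene that overlaps or starts within 5 kb of the other 7 factors had more than 100 counts in a library.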

How the data were processed

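Bulk RNA-seq of 12 WTC11 iMGL libraries was analysed (TruSeq v2, paired reads of 150 bp). The authors trimmed adapters with Cutadapt and aligned reads to hg38 with STAR, and they deposited 1 estimated count per gene and library, unscaled. The counting tool and its annotation are not given in the sources used here. Between 10.8% and 11.5% of values per library were not whole, so values were rounded. The WT columns carry the abbreviation of scrambled controls, but the labels give these samples as WT. Counts were summed over the 2 differentiations of a clone and tested over 17577 genes with edgeR 4.0.16 in R 4.3.3 (TMM, filterByExpr, quasi-likelihood test, Benjamini-Hochberg, threshold 0.05). Differentiation, interaction and clone effects were tested over 15530 genes in 12 libraries, with clone, both, or differentiation in the model. The study's mixed model (DREAM) was not used here. A prior count of 2 entered log2 CPM. Exact permutation tests compared 3 clones with 3.

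Gene positions and exon lengths came from GENCODE version 44 (GRCh38), which held 62686 of 62703 deposited identifiers. Promoters came from RefSeq and matched all 9 factors, with 20 starts. The members and all gene lists were chosen with earlier results of these data known. Named beside the members were LACTB, up to 3 genes of smallest p in each list of factors and targets, the 2 genes most like each member, and neighbours. IRF4, RUNX3 and the other relatives with levels, SALL1, HPGDS, KIT, CIITA, ACP5 and OSCAR were named after their values were seen. Alternatives covered scaling, filter, DESeq2 1.42.0, limma 3.58.1, the replicate block, each differentiation, each clone left out and the stromal level. Leaving out J1 and K2 (between differentiations, all of clones J and K), or J2, was decided after seeing the data. Deviations from the genotype means of same-differentiation libraries of different genotype had a mean r of 0.0323 (18 pairs, -0.464 to 0.577), and the labels give the differentiation as a batch. For pairs of different differentiation the mean r was -0.0312 (18 pairs, -0.527 to 0.352). Because deviations sum to 0 within a genotype, the 2 means must be close to opposite, so the latter is not a separate comparison. Some genes named by this rule are not reported here. The fits were tested on simulated counts.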

Additional observations from a re-analysis of the deposited data

Results flagged for a closer look

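In 66 groups of 6 libraries, 1 for each genotype and named gene, the highest or lowest library was tested for standing apart from the others. The measure was the gap to the nearest library over the range, with a critical value of 0.625. That value flags about 1 group in 20 for independent, normally distributed values of genes chosen beforehand. Here libraries share clones, and some genes were named for a small p in these data. The flags therefore cannot be set against that rate. None of the 9 factors was flagged in either genotype. Among their target genes, GPNMB in WT was set apart by library J2 (1736 CPM against 170 CPM for the next, a gap of 0.913 of the range), as were CTSK (78.7 against 10.8 CPM, 0.910) and ATP6V0D2 (69.0 against 13.3 CPM, 0.838). GPNMB in LACTB KO was set apart by A1 (145 against 61.3 CPM, 0.717). Of the other genes, SMAD3 in WT was highest in J1 (10.5 against 3.10 CPM, 0.753), ETS2 in LACTB KO in C1 (350 against 290.0 CPM, 0.636), NFE2 in WT in K2 (1.90 against 0.341 CPM, 0.932) and in LACTB KO in B2 (1.34 against 0.718 CPM, 0.644), and LACTB in WT in K2 (98.1 against 81.2 CPM, 0.638).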

How the results depend on the processing

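Under 18 alternatives to the genotype comparison, 0 of the 9 factors passed the adjusted threshold. Among them was a fit with differentiation as replicate block (CEBPA 0.24, edgeR adjusted p = 0.775), which changed no call. That fit had no clone term, so the 2 libraries of a clone counted as independent replicates of the genotype. CEBPA stayed above 0 (0.10 to 0.34) and MAF below 0 (-0.41 to -0.07) in all 18 alternatives. Log2 fold changes turned sign in differentiation 1 alone for MEF2C (-0.0490), in differentiation 2 alone for IRF8 (-0.0548) and CEBPB (-0.14), with the stromal level as covariate for CEBPB (-0.22), MEF2C (-0.0242), TFEC (0.0225) and BHLHE41 (-0.22), and without J1 and K2 for IRF8 (-0.0866); the cause was not tested. Leaving out single clones gave IRF8 -0.0667 to 0.0987, RUNX1 -0.0622 to 0.162, CEBPB -0.12 to 0.225, MITF -0.189 to 0.0159, TFEC -0.199 to 0.0259 and BHLHE41 0.0177 to 0.453. Between differentiations, IRF8 ranged from -0.101 to 0.0322 and MEF2C from -0.0529 to 0.0828 in this way. MEF2C was -0.0771 there with scaling to macrophage markers, and IRF8 was 0.0125 without clones J and K. With a clone left out the interaction ranged from -0.287 to 0.0654 for IRF8, -0.258 to 0.13 for RUNX1, -0.162 to 0.457 for CEBPA, -0.931 to 0.0147 for CEBPB, -0.0107 to 0.41 for MAF, -0.182 to 0.21 for MITF and -0.0445 to 0.365 for TFEC, and for MITF was 0.0133 with marker scaling.

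Genes called between genotypes numbered 0, but 2 with no expression filter, 171 with DESeq2 and 0 to 1 with a clone left out (1 without L and 1, LACTB, without B). Between differentiations they numbered 0, but 80 with no filter, 22 without clones J and K and 0 to 48 with a clone left out (48 without J). Between clones they numbered 7, but 13 with marker scaling, 196 with no filter and 1 to 5 with a clone left out (3 without L, 2 without A, 1 without B, 2 without C). With the longest transcript 5 of 9 factors kept their rank. The cause was not tested. With 3 clones per genotype the intervals are wide, for BHLHE41 from -0.29 to 0.77 on the log2 scale.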
